A study of Mus musculus with 8 samples.

Results

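The genes of the cytosolic ribosome were followed in mouse kidney after a week of treatment with BRD4780. Members were taken by name from the table of expected counts. They are genes called Rpl or Rps followed by a number, together with Rplp0, Rplp1, Rplp2 and Rpsa, without the Rps6k kinases and without pseudogenes. The rule found 85 of 21759 genes. They comprise 77 core proteins (31 of the small 40S subunit and 46 of the large 60S subunit), 7 paralogs that can stand in for a core protein or resemble one, and Rps19bp1, a nucleolar protein that binds RPS19 and is not itself part of the ribosome. The rule misses core proteins with other names, of which Fau is given separately.

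Each library came from 1 kidney of an 8-month-old male knock-in mouse of a MUC1 kidney disease model. In this inherited disease of the kidney tubules and the tissue between them, a MUC1 gene with a shifted reading frame gives an altered protein that is held in the secretory pathway. A group of 4 mice received BRD4780, a small molecule known for acting on the cargo receptor TMED9, at 50 mg/kg daily for 7 days, and 4 mice received saline vehicle on the same schedule. All 8 mice carried the disease allele, and no healthy or untreated mice were analysed here. The RNA came from a whole slice of kidney, so it mixes every cell type of the organ.

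Ribosomal proteins assemble with ribosomal RNA into the 40S subunit, which reads the mRNA, and the 60S subunit, which joins the amino acids. Most of the proteins are needed in equal numbers, and their mRNAs are abundant and long-lived in almost every cell. Most of these mRNAs begin with a tract of pyrimidines (the 5′ terminal oligopyrimidine, or TOP, motif), through which LARP1 and the kinase mTORC1 set how strongly they are translated. A change in translation alone leaves the mRNA level as it was, so counts of mRNA do not show it. The sequences below, from RefSeq on GRCm38.p6, show the longest run of C and T between 30 bases before and 50 bases after the annotated start of transcription. Each is 30 bases long, 5′ to 3′ on the gene's own strand, with the longest run in capitals. The first 8 come from members whose values are described below, and the last 3 are members with short runs.
Rpl4: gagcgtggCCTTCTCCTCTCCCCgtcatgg
Rpl12: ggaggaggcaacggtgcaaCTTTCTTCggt
Rpl13a: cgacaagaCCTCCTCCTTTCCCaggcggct
Rps24: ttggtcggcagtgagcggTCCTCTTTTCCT
Rps6: aagtcgggCCTCTTTTTCgtgacgcctccc
Rpl15: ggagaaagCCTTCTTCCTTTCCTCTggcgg
Rpl41: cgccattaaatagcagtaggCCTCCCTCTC
Rps2: aaattgtcccttccgcggcgCCTCCCTCTT
Rpl23: gggcggggCCTCCCgttcatatcccagtgt
Rps19bp1: ggaagtagCTCgccgcgtgtgggcggggct
Rpl7l1: ggcgggccTCTCTaccccgcccggtgaggc

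These windows lie on GRCm38.p6 at Rpl4 chr9:64173405-64173434 (plus strand), Rpl12 chr2:32961732-32961761 (plus strand), Rpl13a chr7:45128722-45128751 (minus strand), Rps24 chr14:24490698-24490727 (plus strand), Rps6 chr4:86857347-86857376 (minus strand) and Rpl15 chr14:18270969-18270998 (minus strand). The others lie at Rpl41 chr10:128549119-128549148 (minus strand), Rps2 chr17:24720083-24720112 (plus strand), Rpl23 chr11:97782400-97782429 (minus strand), Rps19bp1 chr15:80264286-80264315 (minus strand) and Rpl7l1 chr17:46782665-46782694 (minus strand).

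A run of at least 8 pyrimidines lay in that window for 43 of 57 core members with a RefSeq promoter (75.4%), against 28.0% of 16259 genes of the table. The mirror motif, a run of at least 8 A or G, was found in 15.8% of the core members and in 30.0% of all genes. CCGGAAG, a site of ETS factors searched on both strands from 250 bases before to 50 after the start, lay in 40.4% of the core members and 11.9% of all genes. The CRE motif TGACGTCA lay in 8.8% of the core members and 2.4% of all genes, and TATAAA in 8.8% and 12.9%. These are matches of letters and not shown to be sites, and the start positions are those of the annotation.

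Library totals were 23.2, 28.2, 27.8 and 5.74 M expected counts in BRD4780 replicates 1 to 4, and 28.5, 28.1, 16.6 and 23.8 M in vehicle replicates 1 to 4. One treated library stood apart from its group. Over 8822 genes with a mean of at least 10 counts per M (CPM), the root mean square difference in log2 CPM between BRD4780 replicate 3 and the other BRD4780 libraries was 0.403 to 0.437, and between it and the vehicle libraries 0.275 to 0.358. BRD4780 replicates 1, 2 and 4 differed from one another by 0.259 to 0.284. Whether the library labelled BRD4780 replicate 3 carries the right label was not tested. The main results are given with and without it.

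Ribosomal protein mRNAs took up a larger part of the libraries of BRD4780 replicates 1, 2 and 4 than of any vehicle library, and a smaller part of BRD4780 replicate 3 than of any other library. The share of all expected counts in the 85 genes was 4.11%, 4.31%, 3.02% and 4.09% in BRD4780 replicates 1 to 4, against 3.57%, 3.39%, 3.56% and 3.07% in vehicle replicates 1 to 4. The groups overlapped through BRD4780 replicate 3, which lay just under vehicle replicate 4, the lowest vehicle library. Means were 3.88% ± 0.585 with BRD4780 and 3.40% ± 0.234 with vehicle (SD, n = 4 each). The difference was 0.486 percentage points, and 0.774 without BRD4780 replicate 3. In tissue as mixed as this, more cells rich in ribosomal protein mRNA and more of that mRNA per cell cannot be told apart.

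**Figure D1:**
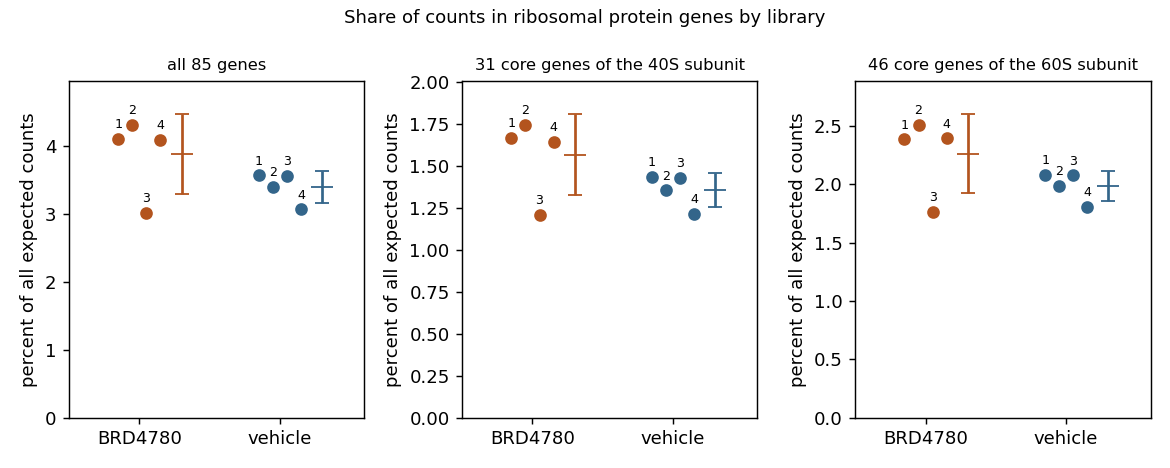
Percent of all expected counts (vertical axis, from 0) in all 85 genes, in 31 core genes of the 40S subunit and in 46 core genes of the 60S subunit, for BRD4780 (left) and vehicle (right). Points are libraries with their replicate numbers and bars are mean ± SD of 4; BRD4780 replicate 3 is the lowest of the 8 libraries in each panel and the other BRD4780 libraries lie above every vehicle library.

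Both subunits showed this order. The 40S core genes held 1.67%, 1.75%, 1.21% and 1.65% of counts in the BRD4780 libraries, against 1.44%, 1.36%, 1.43% and 1.22% in the vehicle libraries. The 60S core genes held 2.39%, 2.51%, 1.76% and 2.39% in the BRD4780 libraries, against 2.08%, 1.99%, 2.08% and 1.81% in the vehicle libraries. The ratio of the 60S share to the 40S share barely moved, lying between 1.43 and 1.46 with BRD4780 and between 1.447 and 1.484 with vehicle. The 7 paralogs together held 0.042% to 0.051% of counts with BRD4780 and 0.042% to 0.05% with vehicle, so the groups had nearly the same range. The 76 mitochondrial ribosomal protein genes, which build the separate ribosome of the mitochondrion, also had overlapping groups, with a mean of 0.459% ± 0.022 of counts with BRD4780 and 0.468% ± 0.015 with vehicle (SD, n = 4 each).

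The common movement was followed gene by gene in the 73 core members with a mean of at least 100 CPM. Relative to the mean log2 CPM of the 4 vehicle libraries, their median level was 0.19, 0.23, -0.14 and 0.17 in BRD4780 replicates 1 to 4, and 0.08, 0.02, 0.05 and -0.14 in vehicle replicates 1 to 4. BRD4780 replicate 3 and vehicle replicate 4 were the low libraries: in each of them 0 of the 73 genes lay above the vehicle mean, against 65 to 72 of 73 in the other BRD4780 libraries. Movement along the average profile of these genes over the 8 libraries made up 83.8% of their summed squared deviations. This figure describes how far they moved as a block.

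Of the 83 members tested, 45 had all of BRD4780 replicates 1, 2 and 4 above every vehicle library (54.2%), against 17.9% of all 13474 genes tested. The opposite order held for 1 member, Rpl7l1 (1.2%), and for 16.6% of all genes. With BRD4780 replicate 3 included, 0 of 83 members had all treated libraries above all vehicle libraries (7.44% of all genes did) and 0 had them all below (5.16% of all genes). BRD4780 replicate 3 was the lowest treated library in 74 of the 83 members (89.2%, against 36.0% of all genes). These orders rest on libraries picked out after their values were seen, so the shares are descriptions.

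**Figure D2:**
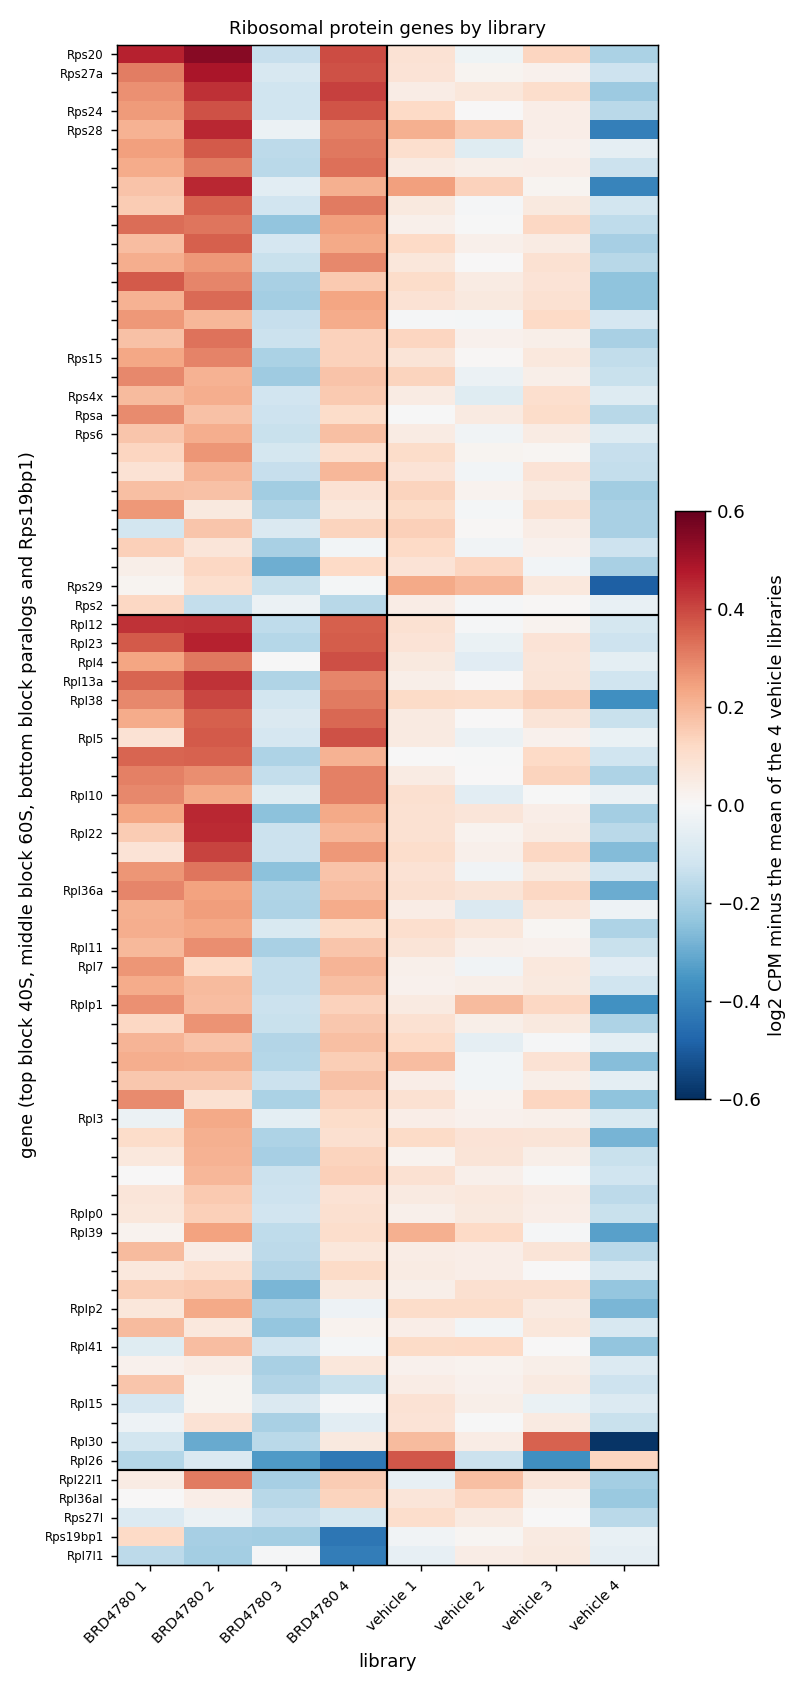
Level of 80 members with a mean of at least 20 CPM in each library, as log2 CPM minus the mean of the 4 vehicle libraries (colour, from -0.6 to 0.6). Columns are libraries, BRD4780 left of vehicle, and rows are genes, with 30 of the 40S subunit on top, 45 of the 60S subunit in the middle and 5 others at the bottom, each block ordered by fold change and with names for the genes described in the text; most rows are red in BRD4780 replicates 1, 2 and 4 and blue in BRD4780 replicate 3 and vehicle replicate 4.

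With all 8 libraries, no ribosomal protein gene passed the test. The counts called were 0 higher and 0 lower of 83 tested at an adjusted p of 0.05 (edgeR's quasi-likelihood test, Benjamini-Hochberg over 13474 genes), where 2.3% of all genes were called higher and 0.623% lower. At an unadjusted p under 0.05 there were 4 of 83 members, where 24.6% of all genes passed. DESeq2 also called 0 members, with 6.07% of all genes called higher and 3.51% lower. Even so, 70 of the 83 log2 fold changes were positive, against 6952 of all 13474 genes, and the median was 0.12 against 0.01 over all genes. The median standard error of a member was 0.11, and for 32 of the 83 it exceeded the fold change itself. The members moved together within each library, so their fold changes are not separate pieces of evidence.

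Without BRD4780 replicate 3 the same test called 22 of 83 members higher (26.5%, where 12.1% of all genes were called higher) and 1 lower (1.2%, where 11.3% of all genes were called lower), and the median log2 fold change was 0.19. The members higher in that fit were 10 of the 40S subunit and 12 of the 60S subunit. The number of calls over all genes rose as well, to 1647 higher and 1537 lower without that library, against 310 and 84 with it. Leaving out any other single library called 0 members, and without vehicle replicate 4 the median fell to 0.07.

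**Figure D3:**
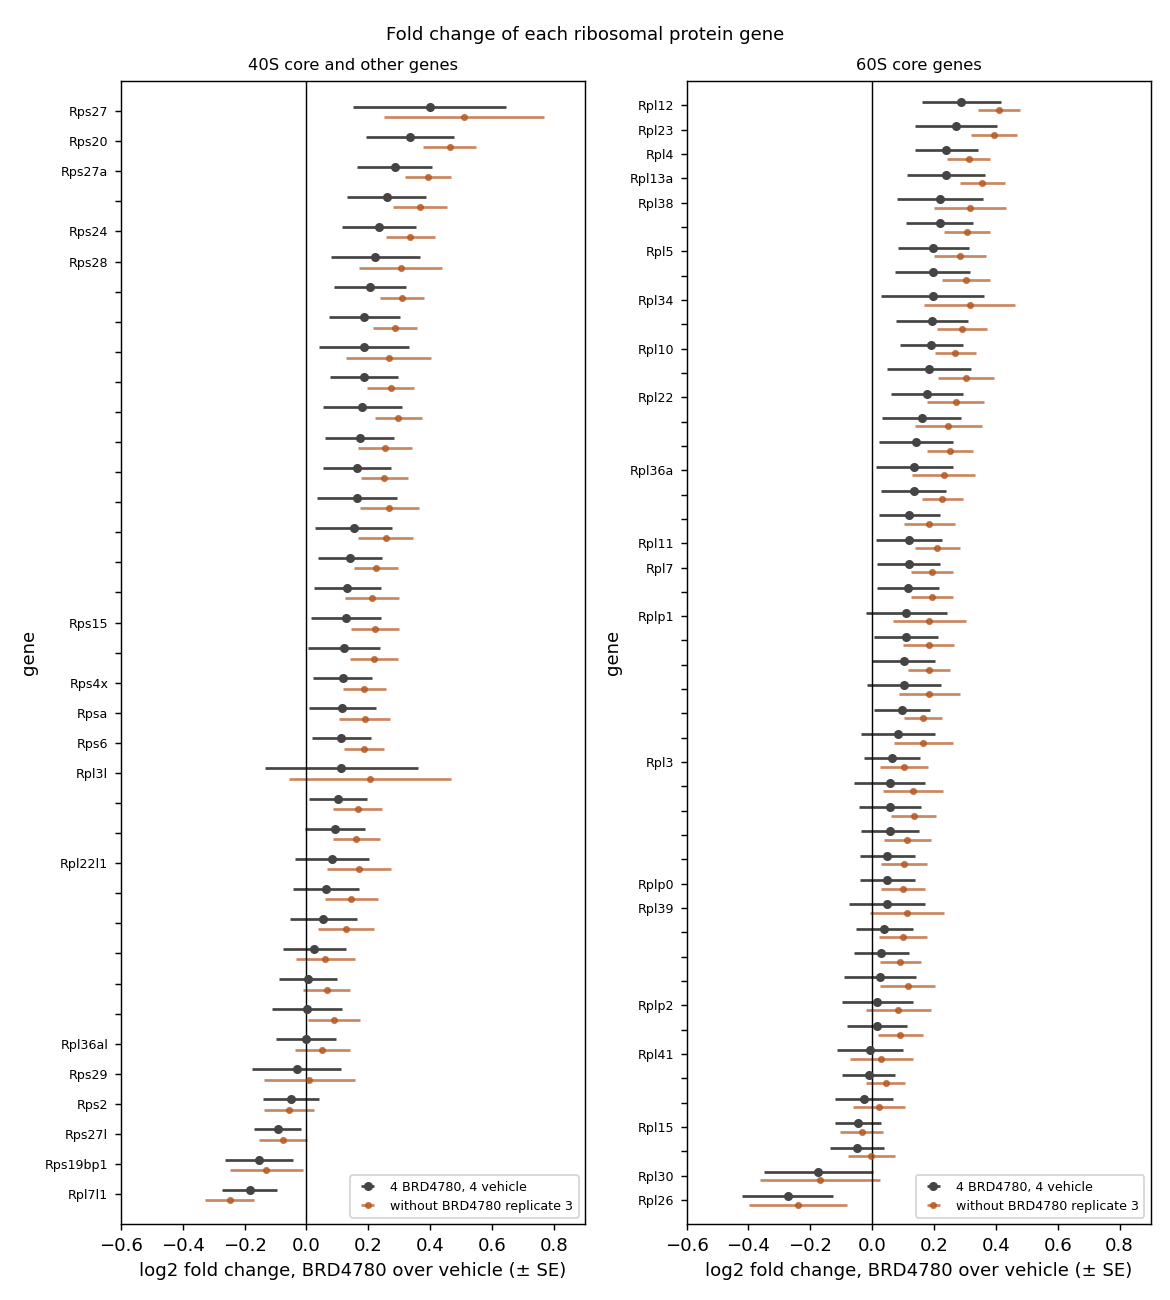
Log2 fold change, BRD4780 over vehicle, with its standard error (horizontal axis) for the 83 members tested, a line each, with 40S core members and other genes in the left panel and 60S core members in the right panel, with names for the genes described in the text. Dark points use all 8 libraries and brown points leave out BRD4780 replicate 3. Most points lie to the right of 0, and most brown points lie further right with shorter bars. Among the exceptions, Rpl7l1 and Rps2 lie further left and Rpl26 has a longer bar.

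The members with the smallest p were Rpl4, Rps27a, Rps20 and Rpl12. Rpl4, on chromosome 9 (GRCm38, 64173375 to 64178666, plus strand), encodes a protein that lines the exit tunnel of the 60S subunit. It had 1087, 1148, 923 and 1208 CPM in BRD4780 replicates 1 to 4, against 960, 881, 970 and 885 CPM in vehicle replicates 1 to 4. BRD4780 replicate 3 fell inside the vehicle range and the other treated libraries lay above it. The log2 fold change was 0.24 ± 0.10 (SE, adjusted p = 0.178), and 0.31 ± 0.07 without BRD4780 replicate 3 (adjusted p = 0.0116).

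Rps20, a 40S protein gene on chromosome 4 (3831334 to 3835665, minus strand), had the largest fold change among well-counted members. Its levels were 441, 468, 291 and 420 CPM in the BRD4780 libraries and 340, 315, 350 and 281 CPM in the vehicle libraries. Again only BRD4780 replicate 3 lay within the vehicle range. The log2 fold change was 0.33 ± 0.14 (SE, adjusted p = 0.182), against 0.46 ± 0.09 without BRD4780 replicate 3 (adjusted p = 0.00483).

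Rps27a, on chromosome 11 (29545846 to 29548109, minus strand), encodes a fusion of ubiquitin and a 40S protein and so supplies both. Levels were 574, 652, 435 and 606 CPM with BRD4780, against 491, 471, 472 and 427 CPM with vehicle. The log2 fold change was 0.28 ± 0.12 (SE, adjusted p = 0.182), and 0.39 ± 0.08 without BRD4780 replicate 3 (adjusted p = 0.0054), which alone of the treated libraries lay within the vehicle range. Fau, whose ubiquitin-like fusion supplies a different 40S protein, averaged 427 ± 61.5 CPM and 381 ± 19.7 CPM in the BRD4780 and vehicle groups (SD, n = 4 each), with an adjusted p of 0.374, and of 0.0283 without BRD4780 replicate 3.

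Rpl12, a protein of the 60S stalk base on chromosome 2 (32961559 to 32965345, plus strand), had 470, 472, 313 and 446 CPM in the BRD4780 libraries, against 371, 346, 352 and 323 CPM in the vehicle libraries. BRD4780 replicate 3 was the lowest of all 8. The log2 fold change was 0.29 ± 0.13 (SE, adjusted p = 0.193), and 0.41 ± 0.07 without that library (adjusted p = 0.00289). The stalk proteins that sit on this base gave smaller values. Rplp0 averaged 805 ± 61.0 CPM with BRD4780 and 779 ± 46.4 CPM with vehicle, Rplp1 483 ± 55.2 and 448 ± 71.6 CPM, and Rplp2 268 ± 32.7 and 265 ± 31.9 CPM (SD, n = 4 each), with log2 fold changes of 0.05, 0.11 and 0.02. None of the stalk proteins Rplp0, Rplp1 and Rplp2 passed without BRD4780 replicate 3 (adjusted p = 0.333, 0.286 and 0.598).

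**Figure D4:**
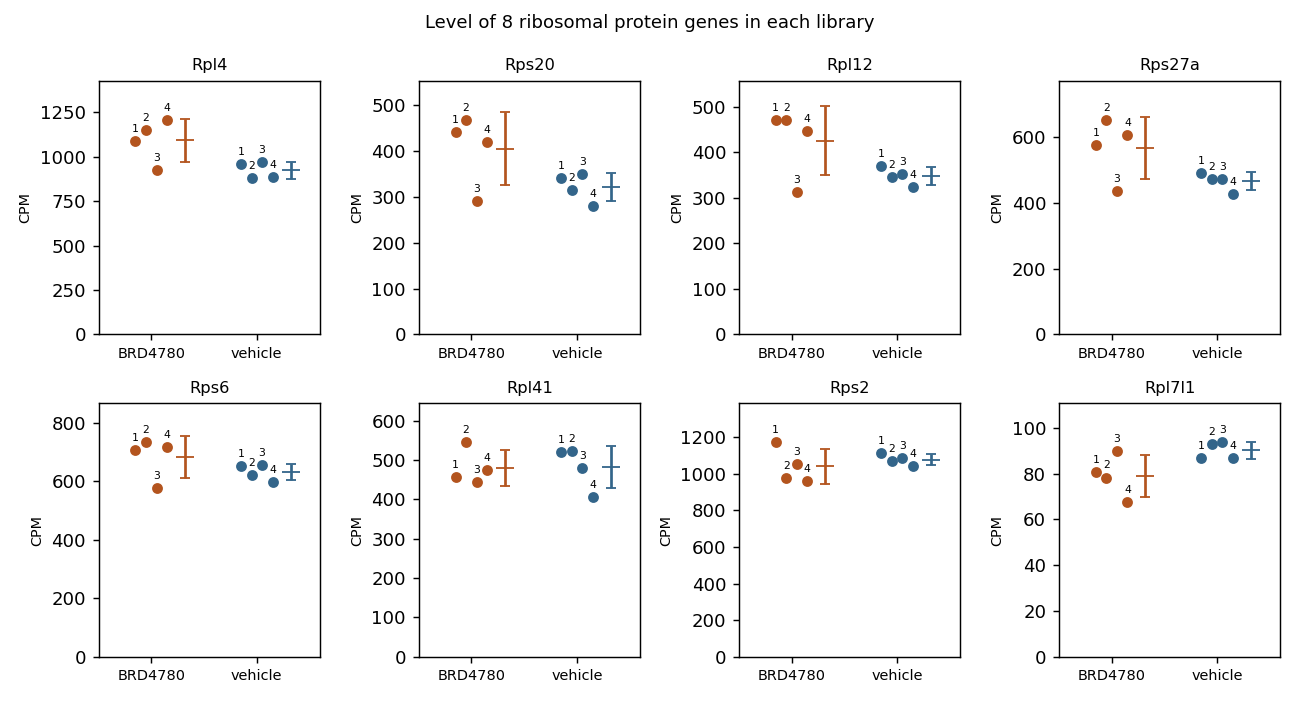
Level in CPM (vertical axes, from 0) of 8 members in the 4 BRD4780 libraries (left of each panel) and 4 vehicle libraries (right), with replicate numbers and mean ± SD. In Rpl4, Rps20, Rpl12, Rps27a and Rps6 BRD4780 replicate 3 lies below the other treated libraries, in Rpl41 and Rps2 the groups overlap widely, and in Rpl7l1 it is the highest treated library.

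Rpl23 and Rpl13a, both of the 60S subunit, behaved as Rpl12 did. Rpl23 averaged 636 ± 115 CPM with BRD4780 and 527 ± 36.8 CPM with vehicle (SD, n = 4 each), a log2 fold change of 0.27 ± 0.13 (SE, adjusted p = 0.231). Rpl13a, known from human cells for a role in silencing inflammatory mRNAs when released from the ribosome, averaged 581 ± 102 CPM and 492 ± 28.8 CPM in the BRD4780 and vehicle groups, a log2 fold change of 0.24 ± 0.13 (SE, adjusted p = 0.265). Both were called higher once BRD4780 replicate 3 was left out (adjusted p = 0.00502 and 0.00691).

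Rpl5 and Rpl11, which with 5S RNA bind MDM2 when ribosome assembly is disturbed, were not called with all libraries. Rpl5 had 768, 933, 675 and 944 CPM in the BRD4780 libraries, against 750, 706, 736 and 703 CPM in the vehicle libraries, and Rpl11 averaged 430 ± 58.4 CPM with BRD4780 and 396 ± 24.2 CPM with vehicle (SD, n = 4 each). Their log2 fold changes were 0.20 ± 0.11 and 0.12 ± 0.11 (SE). Without BRD4780 replicate 3 Rpl5 passed (adjusted p = 0.0331) and Rpl11 did not (adjusted p = 0.0582).

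Rps6, the 40S protein phosphorylated by the S6 kinases downstream of mTORC1, had 708, 734, 576 and 717 CPM in the BRD4780 libraries, against 653, 622, 654 and 598 CPM in the vehicle libraries. The order was that of the block as a whole, with a log2 fold change of 0.11 ± 0.10 (SE, adjusted p = 0.481). Rps4x and Rpsa, the 40S protein also described as a laminin receptor, gave 0.12 ± 0.10 and 0.12 ± 0.11. Rps24 and Rps15, among the members with the highest level per length, gave 0.23 ± 0.12 and 0.13 ± 0.11 (SE). Without BRD4780 replicate 3 Rps24 passed (adjusted p = 0.0138), whereas Rps6, Rps4x, Rpsa and Rps15 did not (adjusted p = 0.0605, 0.077, 0.123 and 0.0618).

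Some abundant members showed less of the common rise of BRD4780 replicates 1, 2 and 4, or none of it. Rps2, a 40S protein near the mRNA entry channel, on chromosome 17 (24718116 to 24721929, plus strand), had 1173, 977, 1052 and 959 CPM in the BRD4780 libraries, against 1111, 1070, 1084 and 1044 CPM in the vehicle libraries. Treated libraries lay both above and below the vehicle range, and the log2 fold change was -0.05 ± 0.09 (SE, adjusted p = 0.766, and 0.654 without BRD4780 replicate 3). For each log2 unit by which the mean of the 73 abundant core members moved across the 8 libraries, Rps2 moved by -0.08 (least squares slope), where the median over those members was 0.991. Rpl15 had the next lowest slope, 0.163, and a log2 fold change of -0.05, and Rps20 the highest slope, 1.763. Rpl41, the smallest protein of the ribosome, averaged 480 ± 45.5 CPM with BRD4780 and 483 ± 54.0 CPM with vehicle (SD, n = 4 each). Rpl3, of the peptidyl transferase centre, and Rpl39 gave log2 fold changes of 0.06 and 0.05. The slope was 0.629 for Rpl41, 0.529 for Rpl3 and 1.046 for Rpl39, so Rpl39 moved with the block across the libraries. The adjusted p without BRD4780 replicate 3 was 0.864 for Rpl41, 0.366 for Rpl3 and 0.527 for Rpl39.

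Rescaling each library so that ribosomal proteins themselves set the scale, an alternative chosen after the data were seen, left no member apart from the block. In that fit 0 of 83 members were called in either direction (1.31% of all genes were called), the median of the members was 0.00 and the median over all genes was -0.09. Relative to the median of the abundant core members in the same library, all 4 treated libraries of Rps24 lay above its 4 vehicle libraries, by a mean of 0.14 log2 units. Its adjusted p in the rescaled fit was 0.638, so the shift did not pass.

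Levels per length spread widely, although most of the proteins are used in equal numbers. Among core members with at least 100 CPM, the median of the mean level over the 8 libraries was 691 CPM per kb in the 40S subunit and 583 CPM per kb in the 60S subunit, where levels ran from 297 to 1452 CPM per kb. Among the highest of both subunits were Rpl10 (1452 CPM per kb), Rps24 (1205), Rps15, Rpl41 (1102) and Rps2 (1061). The lowest, Rps20 at 98.0 CPM per kb, was divided by an annotated transcript of 3706 bases, so its value per kb is likely too low. Per-kb levels depend on the transcript chosen, by the order of preference given with the methods.

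Short and long transcripts differed in several libraries, most in vehicle replicate 4. Over 72 abundant core members, without Rps20, the Spearman correlation (across genes, which are not independent replicates) of length with the level relative to the vehicle mean was -0.04, -0.03, 0.31 and 0.21 in BRD4780 replicates 1 to 4, against -0.45, -0.39, -0.07 and 0.57 in vehicle replicates 1 to 4. Each vehicle library is part of that mean, so the signs among the vehicle libraries are tied to one another. In vehicle replicate 4 the 25 members with transcripts under 600 bases had a median of -0.23, against -0.12 in the 47 longer ones. Rps28, Rps29 and Rpl38 are short genes with low values there. Whether RNA quality or library handling had a part in this was not tested.

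The longest pyrimidine run of the promoter window did not separate the members. That run could lie anywhere in the window, starting at base 41 from the annotated start in Rps2 and at base -1 in Rps6. Members with and without a TOP motif were therefore not compared. The median log2 fold change was 0.12 in 40 abundant core members with a run of at least 8 (from -0.05 to 0.29) and 0.12 in 14 without (from 0.02 to 0.27). Rpl23, whose longest run was 6 bases, moved with the block, while Rpl15 and Rps2, with runs of 17 and 10, hardly moved.

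Of the 5 paralogs tested, 2 had positive and 3 negative log2 fold changes, and 0 were called. Rpl7l1, a relative of Rpl7 that works in ribosome assembly, on chromosome 17 (46773907 to 46782672, minus strand), had 80.8, 78.3, 89.8 and 67.6 CPM in the BRD4780 libraries, against 87.0, 93.1, 93.8 and 86.9 CPM in the vehicle libraries. Its order was the reverse of the block's: BRD4780 replicates 1, 2 and 4 lay below every vehicle library and BRD4780 replicate 3 within their range. The log2 fold change was -0.18 ± 0.09 (SE, adjusted p = 0.226), and -0.25 ± 0.08 without BRD4780 replicate 3 (adjusted p = 0.0467). Rpl7 itself averaged 1071 ± 127 CPM with BRD4780 and 987 ± 39.8 CPM with vehicle (SD, n = 4 each).

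The balance of each paralog with its core protein was tested as the difference in mean log2 ratio, by an exact two-sided permutation test over 70 arrangements, in which p cannot go below 0.0286. Of 8 pairs, 5 could be tested, and 0 passed after adjustment over those 5. The ratio of Rpl7l1 to Rpl7 was 7.39% with BRD4780 and 9.14% with vehicle (difference -0.31 log2 units, exact p = 0.143, adjusted 0.286). It was -0.45 without BRD4780 replicate 3 (exact p = 0.0286 before adjustment, the smallest that 3 against 4 libraries allow). Rpl22l1, which is known to compensate for Rpl22, stood at 35.4% of Rpl22 with BRD4780 and 37.6% with vehicle (difference -0.09, exact p = 0.286, adjusted 0.357), and at -0.14 without vehicle replicate 1 (exact p = 0.0286). Rpl36al ran at 93.3% and 102% of Rpl36a in the BRD4780 and vehicle groups (difference -0.13, exact p = 0.171, adjusted 0.286). The pair of Rps27l and Rps27 had a difference of -0.43 (exact p = 0.171, adjusted 0.286), with Rps27 itself hardly counted, as described further on.

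Paralogs of restricted tissues were scarce. Rpl3l, the striated muscle form of Rpl3, averaged 3.11 ± 0.884 CPM with BRD4780 and 2.92 ± 0.697 CPM with vehicle (SD, n = 4 each), or 0.42% of Rpl3 in both groups (exact p = 0.886). Rpl10l, the germ line form of Rpl10, was at 0 in every BRD4780 library and had 0.072 CPM in vehicle replicate 1, under the 0.105 CPM that a count of 0 allows there. Rpl39l, another germ line form, reached at most 0.268 CPM, in BRD4780 replicate 2, and 0.244 CPM in vehicle replicate 3. Neither was tested. Rps27l, a p53 target that resembles Rps27, averaged 119 ± 3.66 CPM with BRD4780 and 127 ± 10.0 CPM with vehicle, with a log2 fold change of -0.09 ± 0.08 (SE, adjusted p = 0.461, and 0.508 without BRD4780 replicate 3). Rps19bp1 averaged 19.3 ± 3.09 and 21.7 ± 0.642 CPM in the BRD4780 and vehicle groups (SD, n = 4 each), a log2 fold change of -0.15 ± 0.11 (SE, adjusted p = 0.409, and 0.463 without BRD4780 replicate 3).

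Counts of ribosomal protein genes are less certain than most, because their mRNAs have been copied back into the genome many times as processed pseudogenes. In GENCODE M21, 81 of the 85 members share a stretch of at least 50 bases with an annotated pseudogene, and the median member shares 53.6% of its 50-base windows with another gene. For 11 members a gene with its own row in the table shares at least 12.8% of the member's windows. For 3 of these members that gene, a processed pseudogene copy, held most of the counts of the pair. Rpl34, on chromosome 3 (130726831 to 130730398, minus strand), and Rpl34-ps1, on chromosome 6 (71124610 to 71124963, plus strand), match in 352 of 354 aligned bases. Rps27, also on chromosome 3 (90212522 to 90213651, minus strand), matches Rps27rt on chromosome 9 (114982366 to 114982739, minus strand) in all 341. The first 60 bases of each coding sequence, from GENCODE M21 on GRCm38 and on the strand of the gene, are printed to show how alike the copies are, with no difference within either pair.
Rpl34: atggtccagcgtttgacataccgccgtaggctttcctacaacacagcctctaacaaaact
Rpl34-ps1: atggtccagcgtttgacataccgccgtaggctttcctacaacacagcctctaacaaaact
Rps27: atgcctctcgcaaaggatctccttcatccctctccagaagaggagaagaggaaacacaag
Rps27rt: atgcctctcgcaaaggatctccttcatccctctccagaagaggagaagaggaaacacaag

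Rpl34 averaged 6.10 ± 1.17 CPM with BRD4780 and 5.25 ± 0.281 CPM with vehicle (SD, n = 4 each), while Rpl34-ps1 averaged 220 CPM with BRD4780 and 208 CPM with vehicle. Rpl26 held 7.22% to 9.71% of the counts it shared with Gm15772 in the BRD4780 libraries, against 7.80% to 13.1% in the vehicle libraries. For Rpl30 and Gm12191 these shares were 3.61% to 5.42% with BRD4780 and 3.96% to 6.42% with vehicle. Rps27 averaged 2.66 ± 0.747 CPM with BRD4780 and 2.07 ± 0.391 CPM with vehicle (SD, n = 4 each), far below the other 40S genes, and Rps27rt was not analysed here. A fold change of Rpl34, Rpl26 or Rpl30 alone therefore rests on the small part of the shared reads that the estimate placed on it. How reads were divided between Rps27 and Rps27rt was not measured here.

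**Figure D5:**
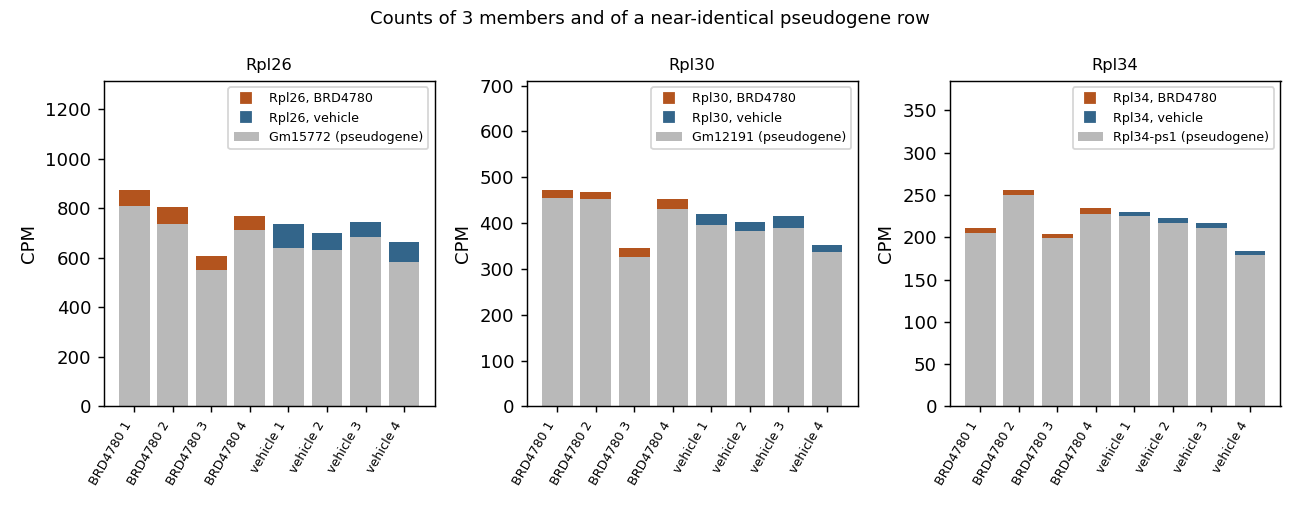
Counts in CPM (vertical axes, from 0) of Rpl26, Rpl30 and Rpl34 stacked on those of a near-identical pseudogene row (grey) in each library, BRD4780 left of vehicle. The coloured part, the member itself, is at most 13.1% of any bar, and the full bar of BRD4780 replicate 3 is the lowest of the treated libraries in all 3 panels.

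Summing member and copy, an alternative chosen after the data were seen, turned the sign of Rpl26 and Rpl30. As deposited, Rpl26 had a log2 fold change of -0.27 ± 0.15 (adjusted p = 0.272) and Rpl30 of -0.17 ± 0.18 (SE, adjusted p = 0.565), the 2 lowest among core members. Summed with the copy they gave 0.11 ± 0.11 and 0.13 ± 0.11 (SE), close to the median of the members, and Rpl34 gave 0.09 ± 0.10. The adjusted p-values of the sums were 0.589, 0.504 and 0.621. The fold change of Rps27, 0.40 ± 0.25 (SE, adjusted p = 0.339), was the highest of all members on the fewest counts.

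Genes around the ribosome were described from lists of known roles. The host genes of small nucleolar RNAs listed here are noncoding transcripts that carry in their introns guides for modifying ribosomal RNA. Coding genes, some of the members among them, can host such RNAs too. Gas5, like ribosomal protein mRNAs, has a TOP motif. Of 12 noncoding host genes listed, 7 were tested, and all 7 had a positive log2 fold change, with a median of 0.49 (0.01 over all genes). DESeq2 called 3 higher, where it called 6.07% of all genes higher. By edgeR 1 was called higher, where 2.3% of all genes were. That gene was Snhg1, with 13.4, 14.5, 14.3 and 13.9 CPM in the BRD4780 libraries, against 9.40, 10.4, 10.2 and 9.91 CPM in the vehicle libraries. Here BRD4780 replicate 3 was as high as the others, and the groups did not overlap (log2 fold change 0.49 ± 0.10, SE, adjusted p = 0.0318). Gas5 had 14.5, 12.01, 11.2 and 12.9 CPM with BRD4780, against 9.69, 6.77, 8.89 and 7.84 CPM with vehicle, and just missed the threshold (adjusted p = 0.0517). Both passed without BRD4780 replicate 3 (adjusted p = 0.0101 and 0.0108), and neither passed when any other library was left out, with adjusted p up to 0.111 and 0.149.

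Of 19 other genes with a TOP motif, among them translation factors, edgeR's quasi-likelihood test called 0. In that test 5 had an unadjusted p under 0.05, as did 24.6% of all genes. DESeq2 called 2 higher, where it called 6.07% of all genes. Of the 19 log2 fold changes 14 were positive, and the median was 0.12. Without BRD4780 replicate 3, 7 of the 19 were called higher, where 12.1% of all genes were. The chaperone gene Npm1 had 273, 369, 234 and 329 CPM in the BRD4780 libraries, against 230, 224, 241 and 229 CPM in the vehicle libraries, so that BRD4780 replicate 3 again lay within the vehicle range (adjusted p = 0.112). In Hnrnpa1, which encodes an RNA-binding protein, BRD4780 replicate 3 was the lowest of the 8 libraries and the other treated ones the highest (log2 fold change 0.46, adjusted p = 0.0965).

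Among 53 tested genes of ribosome biogenesis, 1 was called higher and 0 lower by edgeR, with a median of 0.06, a share no larger than the 2.3% of all genes called higher. DESeq2 called 5 higher, where it called 6.07% of all genes higher. The gene called by edgeR was Tsr1, a factor of 40S maturation, with 42.2, 48.0, 30.8 and 42.5 CPM in the BRD4780 libraries, against 22.2, 24.1, 24.4 and 24.7 CPM in the vehicle libraries (log2 fold change 0.78 ± 0.13, SE, adjusted p = 0.0166). All treated libraries lay above all vehicle libraries. Of 15 tested genes of RNA polymerase I, which transcribes ribosomal RNA, 1 was called higher, the subunit gene Cd3eap (13.4 ± 1.63 CPM with BRD4780 and 9.22 ± 0.736 CPM with vehicle, SD, n = 4 each; adjusted p = 0.0485). DESeq2 called 3 of these 15 higher and 1 lower, where it called 6.07% of all genes higher and 3.51% lower. The 8 tested transcription factors listed for ribosomal protein promoters had 0 calls by edgeR or DESeq2, 1 of them at an unadjusted p under 0.05, and a median of -0.05. Of the 76 mitochondrial ribosomal protein genes, edgeR called 0. An unadjusted edgeR p under 0.05 was reached by 20 of them and by 24.6% of all genes. DESeq2 called 0 of the 76 higher and 5 lower, where it called 3.51% of all genes lower. Among the 76, 63 log2 fold changes were negative, with a median of -0.12. Without BRD4780 replicate 3, 3 of these 76 were called higher and 16 lower, against 12.1% higher and 11.3% lower over all genes. In the same fit 7 biogenesis genes were higher and 2 lower, 4 polymerase I genes higher and 1 lower, and 0 of the 8 transcription factors either way.

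Of 36 tested genes that control mTORC1 and TOP mRNAs, edgeR called 3 higher and 0 lower. Over all genes it called 2.3% higher and 0.623% lower. DESeq2 called 5 of the 36 higher and 1 lower, where it called 6.07% of all genes higher and 3.51% lower. Eif4ebp3, which encodes a repressor of cap-dependent translation, had 66.9, 75.0, 33.7 and 78.8 CPM in the BRD4780 libraries, against 19.9, 22.3, 22.6 and 23.5 CPM in the vehicle libraries (log2 fold change 1.52 ± 0.22, SE, adjusted p = 0.0121). Every treated library exceeded every vehicle library, with BRD4780 replicate 3 nearest to them. Its relative Eif4ebp1 had a log2 fold change of 1.04 ± 0.22 (SE, adjusted p = 0.0428) and Fnip1, a partner of folliculin in amino acid sensing, 0.62 ± 0.14 (adjusted p = 0.044). Of 20 tested genes of ribosome stalling and rescue, 1 was called, Gtpbp2, which rescues stalled ribosomes (log2 fold change 0.51 ± 0.11, SE, adjusted p = 0.0458). With BRD4780 replicate 3 left out, 6 of the mTORC1 and TOP genes were called higher and 2 lower, and 3 of the stalling and rescue genes higher and 4 lower. In that fit 12.1% of all genes were called higher and 11.3% lower.

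These list calls depended on single libraries and on the processing. Without vehicle replicate 2, 0 of these 6 genes passed, the highest adjusted p in any leave-one-out fit being 0.0662 for Tsr1, 0.146 for Cd3eap, 0.0583 for Eif4ebp3, 0.125 for Eif4ebp1, 0.131 for Fnip1 and 0.139 for Gtpbp2. Eif4ebp3 passed in the other 7 fits, while Tsr1 was also lost without BRD4780 replicate 1, 2 or 4 or vehicle replicate 1. Cd3eap, Eif4ebp1 and Gtpbp2 passed only without BRD4780 replicate 3, and Fnip1 also without vehicle replicate 4. Among the alternatives in processing, no polymerase I gene was called higher with upper quartile scaling, with no filter or after thinning to the smallest total. No stalling and rescue gene was called with upper quartile scaling or after thinning, and no small nucleolar RNA host gene after thinning.

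Markers of the cell types in the slice moved too, and their part in the values of the ribosomal protein genes was not tested. The 10 podocyte and endothelial markers summed to 424, 499, 368 and 520 CPM in the BRD4780 libraries, against 280, 235, 287 and 142 CPM in the vehicle libraries, all 10 had positive fold changes and 4 were called higher, among them the podocyte gene Nphs1 (log2 fold change 2.03). Over all genes, 2.3% were called higher. Each of these 4 markers lost its call without vehicle replicate 2. Leukocyte markers (12 listed in the table) summed to 537 to 797 CPM with BRD4780 and 742 to 800 CPM with vehicle, with 0 of 9 tested called. Their highest treated value was that of BRD4780 replicate 3. The 10 tubule markers, which define the labelled tissue, summed to 10240, 9150, 13047 and 11268 CPM with BRD4780, against 11929, 12209, 11935 and 12392 CPM with vehicle, so BRD4780 replicate 3 was the highest of 8, with 0 called. The 3 red cell markers summed to 154 to 781 CPM and 477 to 1576 CPM in the BRD4780 and vehicle groups, and the 8 proliferation markers to 68.0 to 71.1 CPM and 70.5 to 79.9 CPM, with 0 called in either list. The fit without BRD4780 replicate 3 gave 9 podocyte and endothelial markers and 1 tubule marker called higher, and 3 tubule, 2 leukocyte, 2 red cell and 1 proliferation marker lower. In that fit 12.1% of all genes were called higher and 11.3% lower. No marker in these lists was at 0 in every library.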

How the data were processed

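Kidney RNA of 4 BRD4780-treated and 4 vehicle-treated mice was sequenced after oligo-dT capture with an automated stranded TruSeq protocol, per the labels' protocols. The deposited values are expected counts per gene, not normalized. Per the submitters' processing notes, STAR 2.5.2b, RSEM 1.3.0 and Picard were used, and mm10 and hg19 are the genome builds listed there without a role. The annotation and whether strand was used in counting are likewise not given in the sources here. RSEM divides reads that match several genes by likelihood, so members and their pseudogenes can trade counts. In GENCODE M21, exons of 28 members overlapped another gene on the same strand, mostly small nucleolar RNA genes, and 19 on the opposite strand. The table named the treatment AGN50 where the treatment label says BRD4780. A further 1 column of values fitted no sample by name and was not used. A set of 343 symbols on more than 1 line with identical values was collapsed, which left 21759 genes.

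Counts were rounded, kept with filterByExpr (minimum count 10), scaled by TMM and tested with the quasi-likelihood F-test of edgeR 4.0.16 (R 4.3.3), BRD4780 over vehicle with no covariate, adjusted by Benjamini-Hochberg over 13474 genes with a threshold of 0.05. Of 85 members, 83 passed the filter. Standard errors were taken as the size of the log2 fold change over the square root of F. CPM values use TMM-scaled totals, and shares use expected counts. Log2 CPM per library used a prior count of 2. CPM per kb divides by the length of a complete coding transcript in GENCODE M21 (GRCm38), in which all 85 members were found by identifier. Transcripts of the GENCODE basic set were preferred, then those with a consensus coding sequence (CCDS) entry, then the shortest. RefSeq promoters matched 65 members. Paralog ratios were compared by exact permutation. Alternatives were RLE and upper quartile scaling, scaling on genes other than the members, no filter, DESeq2 1.42.0, thinning to the smallest total, and leaving out each library.

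Totals ran from 5.74 to 28.5 M. A count of 0 allows up to 3 counts, or 0.105 CPM in vehicle replicate 1 and 0.523 CPM in BRD4780 replicate 4, for counting error only. No 2 libraries agreed within sampling noise (lowest chi-square per degree of freedom 7.98). Replicate numbers follow the order of deposition and pair nothing. The titles hold a number for each mouse, 2 of which occur in both groups, and their meaning is not stated. The named members are those past the threshold, the 6 highest per kb, the 5 largest and 5 smallest log2 fold changes, the 4 smallest p, the 3 most variable within groups and a set of well-known members. From each list, genes past the threshold and the 2 smallest p are named. Members and lists were chosen with earlier results of these data known. Genes named beyond this rule (Rpl15, Rps28, Rps29, Rpl38) were chosen after their values were seen. Some genes under the rule are not reported here. The test was checked on simulated counts.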

Additional observations from a re-analysis of the deposited data

Results flagged for a closer look

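In the groups of 4 libraries of the named members, the share of counts and the paralog ratios, 9 of 84 groups had 1 library far from the other 3 by Dixon's test at 95%. Among independent, roughly normal groups chance flags about 1 in 20. The members moved together within each library, so that rate is no fair measure here and the flags are not separate pieces of evidence. BRD4780 replicate 3 was the low library in 3 of the 9 groups: the share of counts in members, at 3.016%, Rps6, at 575.6 CPM, and Rpl12, at 313.3 CPM. Vehicle replicate 4 was the low library in 3 others: Rpl3, at 640.3 CPM, Rpl36a, at 160.4 CPM, and Rplp0, at 709.7 CPM. In the remaining 3 the library set apart was the high one, in scarce paralogs whose other values were at or near 0. They were Rpl39l in BRD4780 replicate 2 (0.2683 CPM) and in vehicle replicate 3 (0.2435 CPM), and Rpl10l in vehicle replicate 1 (0.0718 CPM).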

How the results depend on the processing

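The count of members called was 0 in each direction in every alternative except 1. Without BRD4780 replicate 3 it was 22 higher and 1 lower, so these counts ranged from 0 to 22 and from 0 to 1 over the fits that leave out a library. The median log2 fold change of the members ran from 0.07 without vehicle replicate 4 to 0.19 without BRD4780 replicate 3 over the alternatives given with the methods, and was 0.00 when libraries were scaled on the members, an alternative added after the data were seen. The unadjusted exact p of the paralog differences crossed 0.05, to 0.0286, for Rpl7l1 over Rpl7 without BRD4780 replicate 3 (-0.4538) and Rpl22l1 over Rpl22 without vehicle replicate 1 (-0.1366). These differences ranged over the fits that leave out a library from -0.4538 to -0.2018 and from -0.1366 to -0.0353. The cause of these changes was not tested. The difference in the share of counts ranged from 0.343 to 0.774 percentage points when libraries were left out, and the median of 60S minus that of 40S members from -0.0549 to -0.0209 log2 units. A number in the titles occurs in both groups for 2 pairs of mice, with no stated meaning. With it as a block, on those 4 libraries and 1 residual degree of freedom, also added after the data were seen, 0 members were called and the median was 0.2586. The deviations of same-numbered mice from their group means had correlations of -0.01 and -0.298 over 13474 genes, so no pairing was taken from it. The depth of 5.74 M counts in BRD4780 replicate 4 limits genes with few counts.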
